A study of Homo sapiens with 12 samples.

Results

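The binding sites of IGF2BP2 were set against those of IGF2BP3 in HepG2, a human liver cancer cell line, with 2 PAR-CLIP libraries for each protein. A site entered the comparison when it was found in both libraries of a protein, that is, when strand-matched clusters of both libraries had 1 nt or more in common and were joined. This gave 3174 IGF2BP2 sites out of 8768 merged sites (36.2%) and 4865 IGF2BP3 sites out of 8359 (58.2%), 8039 sites in all. They came from 25348 of the 102250 clusters of the whole series, whose 12 libraries also covered IGF2BP1, the m7G methyltransferase METTL1 with its partner WDR4, and a further pair of IGF2BP3 libraries labelled bio2. The bio2 libraries had no part in choosing the sites and served below as outside libraries. All cells were wildtype, were labelled with 4-thiouridine and were crosslinked with ultraviolet light, and the lysates were digested with RNase T1 before and after immunoprecipitation with an antibody to the protein named. No input or mock library was used here.

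IGF2BP2 and IGF2BP3 belong to a family of RNA-binding proteins that carry RRM and KH domains. They bind mRNAs, mostly in the 3' UTR, and are known to act on the stability, localization and translation of their targets. They have been described as readers of m6A, and the study examined them as readers of internal m7G. The study describes IGF2BP3 as scarce in adult organs other than reproductive tissues, and IGF2BP2 as present in many adult tissues. In PAR-CLIP, RNA labelled with 4-thiouridine is crosslinked to the bound protein and trimmed by RNase T1, which cuts after G, so that a cluster marks a bound stretch that the nuclease left. A cluster therefore usually follows a G, and this held for 91.0% to 94.7% of the clusters in the 4 libraries.

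The sites below show what the 2 proteins had in common and where they parted. Genes were taken from those with the most sites of a kind in exons, and the site shown was the widest in the 3' UTR or coding sequence whose central 20 nt occurs once in hg38. Its central 30 nt are printed 5′ to 3′, with T for U. In the sites shared by both proteins, capitals mark the element CAUH (CAUA, CAUC or CAUU), the short motif known for this family.
NFAT5, shared: tttcCATTtaaaccttcttttctcCATTtc
APOB, shared: ggaactatcaactctacaaatctgtttctc
They lie at chr16:69701469-69701498 (plus strand, 3' UTR) and chr2:21027962-21027991 (minus strand, coding sequence) of hg38. The NFAT5 stretch held 2 copies of CAUH and the APOB stretch held none. The stretches of IGF2, MDM2, ZNF121, APOOL and RPS29, found by the same rule and not printed, held 0 copies, and that of PLBD2 held 3.

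The next set is of IGF2BP3 sites that no cluster of either IGF2BP2 library overlapped, called IGF2BP3-only sites from here on. Capitals again mark CAUH.
APOB, IGF2BP3 only: tCATCATTtgccctcaacctaccaacactc
BMPR2, IGF2BP3 only: attttctcactCATAttcctctatcttatc
PAICS, IGF2BP3 only: ctcaatctctcttacctttcCATAattttc
LCOR, IGF2BP3 only: aactgtattactaattctcacCATCttctt
PATL1, IGF2BP3 only: tctctccctttatccctccactactccacc
They lie at chr2:21005510-21005539 (minus strand, coding sequence), chr2:202561686-202561715 (plus strand, 3' UTR), chr4:56464464-56464493 (plus strand, 3' UTR), chr10:96985883-96985912 (plus strand, 3' UTR) and chr11:59638061-59638090 (minus strand, 3' UTR). The BMPR2, PAICS and PATL1 stretches held 0 G, and those of APOB and LCOR held 1 G each. The stretches of MBNL3 and HMGA2, found by the same rule and not printed, held 3 G and 2 G and 0 copies of CAUH.

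The last set is of IGF2BP2 sites that no cluster of either IGF2BP3 library overlapped, called IGF2BP2-only sites. Here capitals mark the word CUGG, the word GCUG, the word GGCU or the word UGGG, the 4 words of 4 bases that were most in excess in the IGF2BP2 libraries.
TTYH3, IGF2BP2 only: ctctagggcaGGCTGGGGCTGcgGGCTGag
IGF2, IGF2BP2 only: gttgctTGGGccccggagcccacgggtctg
MDM2, IGF2BP2 only: cctacagtcatctgccaccacacCTGGCTa
GINS1, IGF2BP2 only: gagttccagaccagcccgggcctatggcaa
MYADM, IGF2BP2 only: tccctcccacctttttctttccttcccaat
They lie at chr7:2662552-2662581 (plus strand), chr11:2129891-2129920 (minus strand), chr12:68840281-68840310 (plus strand), chr20:25447923-25447952 (plus strand) and chr19:53874616-53874645 (plus strand), all in 3' UTRs. The TTYH3, IGF2, GINS1 and MDM2 stretches held 15, 12, 9 and 4 G. The MDM2 stretch also held 1 copy of CAUH. The MYADM stretch held 0 G and was made of pyrimidines with a few A, and that of TMEM170A, found by the same rule and not printed, held 0 G too. These stretches illustrate single sites, and the counts over all sites follow.

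IGF2BP2 libraries listed 4581 and 7469 clusters and IGF2BP3 libraries 6467 and 6831, with median widths between 41 nt and 43 nt. The files list intervals without reads or scores, so the depth behind a cluster was unknown, and all intervals given are 95% Wilson confidence intervals that cover counting error over sites or clusters only. Identical clusters, with the same start and end, numbered 1351 between the IGF2BP2 libraries and 2853 between the IGF2BP3 libraries, so no library was a copy of another. Of 8 liver genes looked up as markers of the cells, APOB, SERPINA1 and FGB had exonic clusters in each of the 4 libraries. ALB had none in IGF2BP2 replicate 2, AFP had 1 in each IGF2BP2 library and 0 in both IGF2BP3 libraries, and APOA1, TTR and TF had 0 in all 4. This says where clusters were called and not whether the genes were expressed.

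The shared sites were a larger part of the IGF2BP2 sites than of the IGF2BP3 sites. Of the IGF2BP2 sites, 1956 (61.6%, 59.9% to 63.3%) overlapped an IGF2BP3 site, 464 (14.6%) overlapped IGF2BP3 clusters without reaching a site, and 754 (23.8%, 22.3% to 25.3%) were IGF2BP2 only. Of the IGF2BP3 sites, 1963 (40.3%, 39.0% to 41.7%) were shared, 911 (18.7%) overlapped IGF2BP2 clusters without reaching a site, and 1991 (40.9%, 39.6% to 42.3%) were IGF2BP3 only. Together the sites made 6050 distinct places, of which 1930 (31.9%) were held by both proteins. These shares moved with the library that was left out. With replicate 2 as the single IGF2BP2 library, the shared part of the IGF2BP2 sites was 35.8%, and with replicate 1 it was 49.0%, since clusters of 1 library then counted as sites. The shared part of the IGF2BP3 sites was 54.2% and 45.2% in these settings.

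Where both proteins had a site, the ends often fell on the same base. Of the 1989 overlapping pairs of sites, 956 (48.1%) had identical ends, 1432 (72.0%) had the same 5′ end and 1222 (61.4%) the same 3′ end. In 1386 pairs (69.7%) the IGF2BP3 site did not reach beyond the IGF2BP2 site, a count that includes the 956 pairs with identical ends. The reverse was not counted. The median width was 49 nt for shared sites of either protein, 48 nt for IGF2BP2-only sites and 38 nt for IGF2BP3-only sites.

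The transcript regions of all clusters were compared by library, with each cluster placed by its midpoint. Coding sequence held 7.42% and 7.97% of the IGF2BP2 clusters and 13.5% and 12.9% of the IGF2BP3 clusters. Both IGF2BP2 libraries lay below both IGF2BP3 libraries, by 5.48 percentage points between the means, which was larger than the spread within either pair (SD 0.385 and 0.414, n = 2 each). With 2 libraries against 2, the two-sided exact permutation test has 6 splits and cannot give less than p = 0.333, which is the value found here (adjusted p = 0.667 over 4 such tests). The difference was -3.40 points among clusters with a single-copy centre, -2.97 among the widest 4581 clusters of each library and -2.80 among clusters with no G before the last base. No such permutation test of these libraries can pass 0.05, and the labels do not say whether the replicates were separate cultures.

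The 3' UTR share did not separate the proteins. It was 42.9% and 39.4% in the IGF2BP2 libraries and 41.5% and 41.5% in the IGF2BP3 libraries (difference -0.36 points, exact permutation p = 1, adjusted p = 1). Introns held 19.996% and 23.7% against 21.5% and 20.6% (difference 0.84 points, exact permutation p = 1, adjusted p = 1). Both groups overlapped in these regions, and the sign of both differences turned under other settings. Among clusters with a single-copy centre, 3' UTRs were 4.73 points more frequent in IGF2BP2 and introns 3.70 points less frequent. Among clusters in 5' UTRs, coding sequence and 3' UTRs alone, the 3' UTR part was 82.5% and 80.5% for IGF2BP2 and 74.1% and 74.7% for IGF2BP3, without overlap. Intergenic sequence held 12.9% and 15.1% of the IGF2BP2 clusters and 11.3% and 11.5% of the IGF2BP3 clusters.

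**Figure D1:**
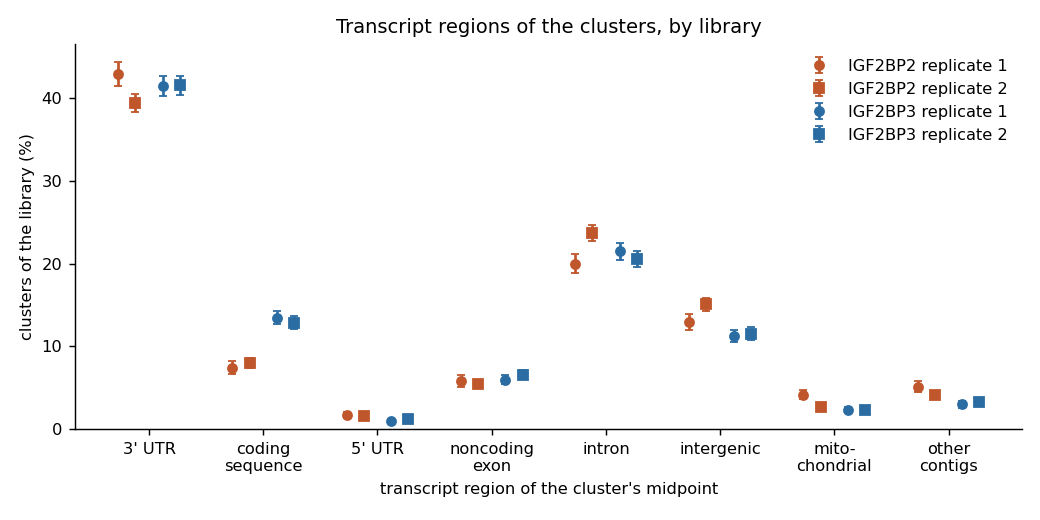
Share of the clusters of each library (y axis, percent) in each transcript region (x axis), with circles for replicate 1, squares for replicate 2 and bars for 95% Wilson intervals. Coding sequence holds 7.42% and 7.97% of the IGF2BP2 clusters and 13.5% and 12.9% of the IGF2BP3 clusters, while the 3' UTR shares of the proteins overlap.

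The sites, which were made from these clusters, divided in the same way. Coding sequence held 33 of the 754 IGF2BP2-only sites (4.4%) and 369 of the 1991 IGF2BP3-only sites (18.5%), with 179 of 1956 (9.2%) among the shared IGF2BP2 sites. Seen from the region, 179 of 232 IGF2BP2 sites in coding sequence were shared (77.2%, 71.3% to 82.1%), against 178 of 685 IGF2BP3 sites there (25.99%, 22.8% to 29.4%). In 3' UTRs, 975 of 1464 IGF2BP2 sites (66.6%) and 978 of 2152 IGF2BP3 sites (45.4%) were shared. The 3' UTR held 279 IGF2BP2-only sites and 737 IGF2BP3-only sites, which was 37.0% of the one-sided sites of either protein. IGF2BP2 sites in introns and between genes were shared in 48.0% and 46.0% of cases, and IGF2BP3 sites there in 29.8% and 34.6%. Within 3' UTRs, the IGF2BP2-only sites lay at a median of 1708 nt from the stop codon, the shared IGF2BP2 sites at 1171 nt and the IGF2BP3-only sites at 1034 nt. Their median distances to the end of the 3' UTR were 1724 nt, 1597 nt and 1554 nt. As a fraction of the 3' UTR from the stop codon, the median positions were 0.482, 0.392 and 0.408. Repeated sequence was not left out of these medians, and 136 of the 279 IGF2BP2-only sites in 3' UTRs were single-copy. The libraries lay closer together over all their 3' UTR clusters. Their median fractions were 0.418 and 0.443 for IGF2BP2 and 0.415 and 0.416 for IGF2BP3, at 1329.5 nt and 1319 nt against 1123 nt and 1146 nt from the stop codon.

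**Figure D2:**
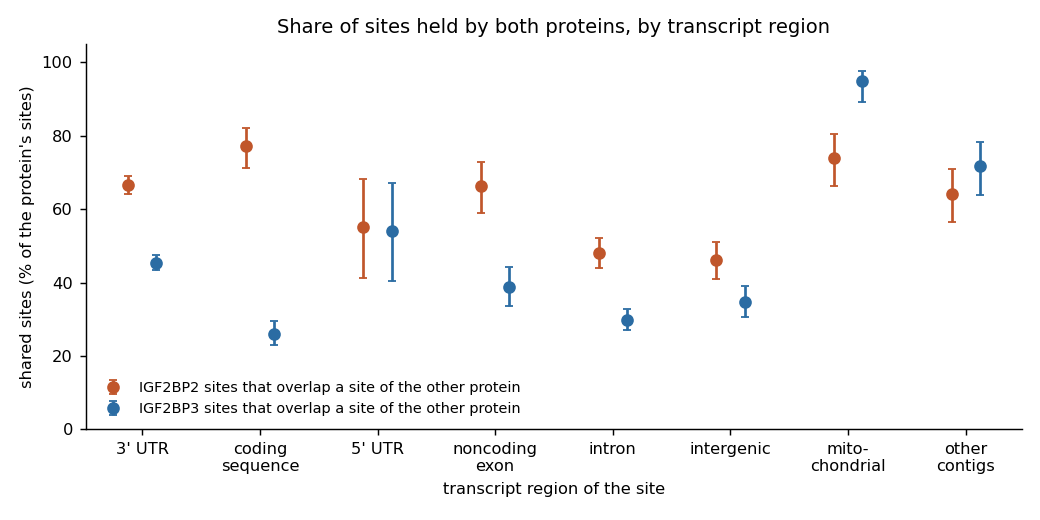
Percent of the sites of IGF2BP2 (orange) and IGF2BP3 (blue) in each transcript region that overlap a site of the other protein, with 95% Wilson intervals. In coding sequence 77.2% of the IGF2BP2 sites and 25.99% of the IGF2BP3 sites are shared.

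The CAUH element was less frequent in IGF2BP2 clusters. It was sought on the strand of the cluster, in the cluster widened by 10 nt at both ends. IGF2BP2 windows held it in 51.7% and 49.6% of cases and IGF2BP3 windows in 73.8% and 72.1%. The means differed by -22.3 points without overlap (exact permutation p = 0.333, the smallest possible, adjusted p = 0.667). In stretches of the same length upstream of the clusters, between 31 nt and 130 nt away, the share was 46.8% and 45.1% for IGF2BP2 and 53.9% and 53.7% for IGF2BP3. CAUH in IGF2BP2 windows was therefore 4.93 and 4.54 points above its upstream flanks, and in IGF2BP3 windows 19.8 and 18.5 points above them. The flanks were not matched for base composition, and CAUH holds no G. Among 3' UTR clusters with a single-copy centre, G made up 10.7% and 11.5% of IGF2BP2 bases and 5.42% and 5.53% of IGF2BP3 bases. Upstream of these clusters it made up 21.9% and 22.2% for IGF2BP2 and 20.8% and 20.6% for IGF2BP3. The part of base composition in the excess was not tested.

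One-sided sites lay further apart than the libraries. They come from the same clusters, and leaving out the places in common tends to widen any difference, so this is no separate result. CAUH was found in 275 of the 754 IGF2BP2-only sites (36.5%) and in 1659 of the 1991 IGF2BP3-only sites (83.3%), with 1323 of 1956 (67.6%) in shared IGF2BP2 sites. Among sites in coding sequence the share was 36.4% (12 of 33) for IGF2BP2-only sites and 80.8% (298 of 369) for IGF2BP3-only sites. Among single-copy sites in 3' UTRs it was 36.8% and 83.0%.

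G content moved with these results. A cluster was called free of inner G when it held no G before its last base. The last base was left out since RNase T1 cuts after G. It was a G in 66.3% and 66.7% of the IGF2BP2 clusters and in 70.6% and 68.2% of the IGF2BP3 clusters. Such clusters made up 33.5% and 30.3% of the IGF2BP2 libraries and 71.4% and 68.4% of the IGF2BP3 libraries. G made up 15.8% and 16.5% of the bases in IGF2BP2 clusters and 7.19% and 8.07% in IGF2BP3 clusters. Of the IGF2BP2-only sites 56 (7.4%) were free of inner G, of the shared IGF2BP2 sites 949 (48.5%) and of the IGF2BP3-only sites 1784 (89.6%). The libraries of the proteins did not overlap in these measures. IGF2BP2-only and IGF2BP3-only sites stood at opposite ends, with the places in common left out.

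When clusters free of inner G were compared with each other, CAUH reached 76.4% and 74.3% in IGF2BP2 and 81.9% and 81.1% in IGF2BP3. The difference was -6.13 points there, and -14.0 points among clusters with inner G, against -22.3 points overall. Sharing changed as well. Among sites free of inner G, 88.0% of the IGF2BP2 sites and 26.6% of the IGF2BP3 sites were shared, while among sites with inner G it was 48.0% and 70.7%. The extent of the RNase T1 digestion in each library was not measured in these files, and its part in the difference was not tested.

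The share of windows with each of the 256 words of 4 bases was also compared between libraries. In 170 words (66.4%) both IGF2BP2 libraries lay above both IGF2BP3 libraries, and in 79 words (30.9%) both lay below. The words above were led by CUGG, with 35.8% and 39.3% of the IGF2BP2 windows against 21.3% and 22.3% of the IGF2BP3 windows. GCUG followed with 28.6% and 30.3% against 14.6% and 16.0%. The words below were led by CAUC, with 29.3% and 27.8% against 46.2% and 44.4%, then UCAU and CAUU, the latter with 24.5% and 23.3% against 37.4% and 36.8%. Nearly all words divided by whether they held a G. Of the 175 words with G, 169 were higher in IGF2BP2 and 0 lower, and of the 81 words without G, 79 were lower and 1, CUCC, was higher. With a window of 41 nt about each cluster's centre, a setting chosen after the data were seen, all 175 words with G (68.4% of the 256) were higher and all 81 words without G (31.6%) were lower.

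**Figure D3:**
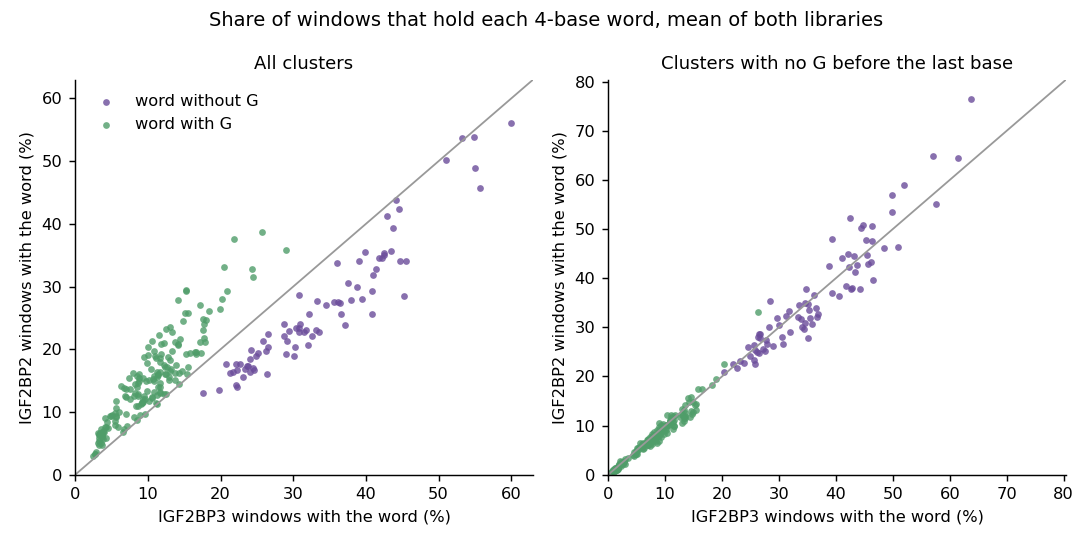
Each point is 1 of the 256 words of 4 bases, placed by the percent of IGF2BP3 windows (x axis) and IGF2BP2 windows (y axis) that hold it, as the mean of both libraries, in all clusters (left) and in clusters with no G before the last base (right). On the left 169 of the 175 words with G are higher in both IGF2BP2 libraries and 79 of the 81 words without G are lower; on the right the points lie closer to the line of equal shares.

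Among single-copy clusters in 3' UTRs, 146 words (57%) were higher and 87 (34%) lower in IGF2BP2. CAUC stood at 33.4% and 30.7% against 41.9% and 41.5% there, and CUGG at 29.0% and 32.2% against 20.7% and 20.5%. In clusters free of inner G, 55 words (21.5%) were higher and 116 (45.3%) lower. The widest gap in that set was for the pyrimidine word CUCU, with 76.8% and 76.3% for IGF2BP2 and 63.6% and 63.7% for IGF2BP3. Over all clusters CUCU had run the other way, with 56.6% and 55.5% against 60.1% and 59.8%. UCCC was at 53.3% and 51.4% against 42.6% and 42.4% in clusters free of inner G. AUCA, at 28.4% and 27.3% against 35.1% and 35.1%, and UCAU, at 40.2% and 39.2% against 46.3% and 46.8%, were the words with the largest deficit in IGF2BP2 there.

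Repeated sequence also differed. The central 20 nt occurred once in hg38 for 50.0% and 50.0% of the IGF2BP2 clusters and for 68.3% and 66.6% of the IGF2BP3 clusters. It occurred more than 100 times for 15.7% and 17.8% against 6.11% and 7.42%. Among IGF2BP2-only sites 189 of 754 (25.1%) had such a centre, against 148 of 1956 (7.6%) of the shared IGF2BP2 sites and 64 of 1991 (3.2%) of the IGF2BP3-only sites. Where the reads of a repeated sequence were placed cannot be told from the clusters. Restricted to single-copy clusters, 68.6% of the IGF2BP2 sites and 32.0% of the IGF2BP3 sites were shared, and CAUH differed by -17.8 points.

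The 8 libraries that had no part in choosing the sites held the one-sided sites to different extents. In the bio2 libraries of IGF2BP3, clusters overlapped 6.1% and 5.7% of the IGF2BP2-only sites and 41.03% and 39.4% of the IGF2BP3-only sites. Shared IGF2BP2 sites were overlapped in 44.6% and 43.5% of cases, so the IGF2BP3-only sites stood close to the shared ones and the IGF2BP2-only sites far below both. METTL1 and WDR4 libraries overlapped more of the IGF2BP2-only than of the IGF2BP3-only sites. METTL1 clusters overlapped 36.2% to 41.8% of the IGF2BP2-only sites and 3.4% to 5.2% of the IGF2BP3-only sites, and WDR4 clusters 35.0% to 39.1% and 7.5% to 8.0%. They overlapped more of the shared IGF2BP2 sites than of either, with 48.3% to 55.9% for METTL1 and 56.1% to 59.7% for WDR4. IGF2BP1, which had the most clusters, overlapped at least 98.9% of the shared sites of either protein, 69.4% to 70.3% of the IGF2BP2-only sites and 87.3% to 92.3% of the IGF2BP3-only sites.

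**Figure D4:**
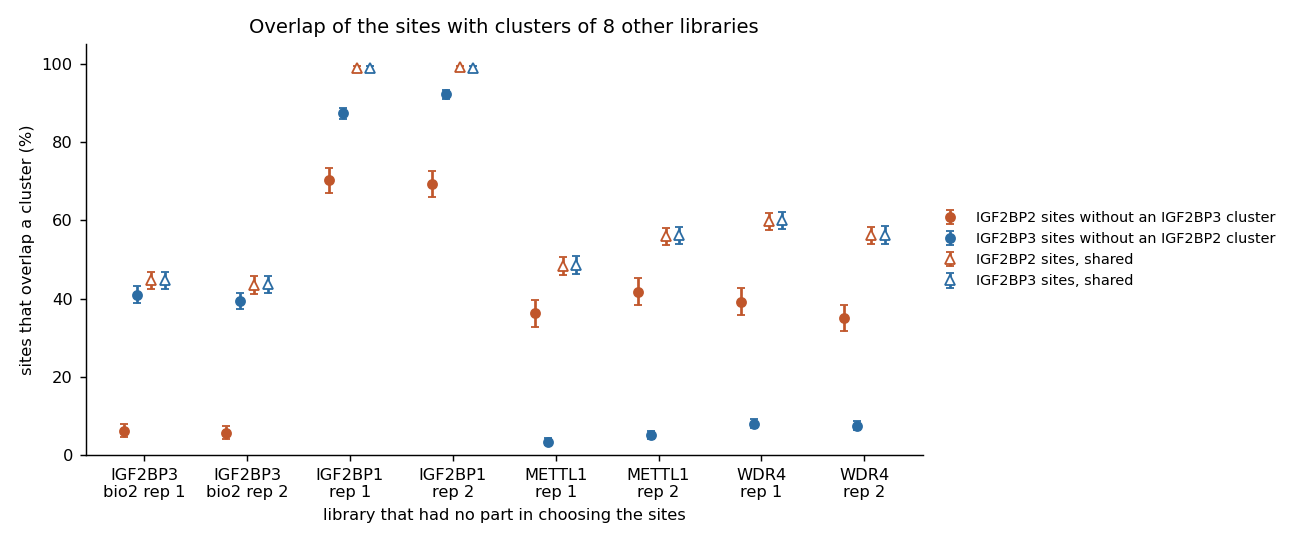
Percent of the sites (y axis, with 95% Wilson intervals) that overlap a cluster of each of 8 libraries not used to choose them (x axis), for sites of one protein only (filled circles) and shared sites (open triangles). IGF2BP3-only sites lie between 39.4% and 41.03% in the bio2 libraries and at 8.0% or less in the METTL1 and WDR4 libraries, and IGF2BP2-only sites at 6.1% or less in the bio2 libraries and at 35.0% or more in those of METTL1 and WDR4.

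The order of the IGF2BP2-only and IGF2BP3-only sites was the same within subsets. Among single-copy sites the bio2 libraries overlapped 1.8% to 2.9% of the IGF2BP2-only and 40.98% to 42.6% of the IGF2BP3-only sites, and METTL1 34.3% to 37.9% and 3.1% to 4.9%. Among sites free of inner G the bio2 libraries overlapped 0% to 3.6% and 39.5% to 41.03%, and METTL1 28.6% to 30.4% and 2.4% to 4.0%, with 56 IGF2BP2-only sites in that set. In that set the bio2 libraries overlapped 45.3% and 43.9% of the shared IGF2BP2 sites. IGF2BP1 overlapped 99.2% and 99.5% of the shared IGF2BP2 sites there and 69.6% and 78.6% of the IGF2BP2-only sites. For METTL1 and WDR4 alone, the shared IGF2BP2 sites free of inner G did not stand apart from the IGF2BP2-only ones. METTL1 overlapped 27.7% and 37.0% of the shared ones. WDR4 overlapped 44.2% and 42.8% of the shared ones and 44.6% and 41.1% of the IGF2BP2-only ones. The share of clusters free of inner G was 57.1% and 57.7% in the bio2 libraries, 15.4% and 18.6% in METTL1, 30.6% and 36.1% in WDR4, and 49.9% and 56.2% in IGF2BP1. Protein and G content moved together across these libraries, and the part of each was not tested.

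At the level of genes, 3229 protein-coding genes had a cluster in the 5' UTR, coding sequence or 3' UTR in at least 1 of the 4 libraries. Of these, 930 (28.8%) held sites of both proteins, 531 (16.4%) were IGF2BP3 only, with a site of IGF2BP3 and no exonic IGF2BP2 cluster, and 104 (3.22%) were IGF2BP2 only. A further 471 had an IGF2BP3 site beside IGF2BP2 clusters that made no site, 101 had the reverse, and 1092 had no site. Genes with both made up 81.9% of the 1135 genes with an IGF2BP2 site and 48.1% of the 1932 with an IGF2BP3 site. The 2 proteins had no shared site in 65 of the 930 genes. These counts moved with the libraries used. With IGF2BP2 replicate 1 left out 502 genes were IGF2BP2 only, and with replicate 2 left out 228 were IGF2BP2 only and 851 were IGF2BP3 only.

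The outside libraries gave the same picture for genes. In the bio2 libraries, 63.1% and 63.3% of the 531 IGF2BP3-only genes and 15.4% and 12.5% of the 104 IGF2BP2-only genes had an exonic cluster. METTL1 had exonic clusters in 47.1% and 58.7% of the IGF2BP2-only genes and in 10.5% and 16.0% of the IGF2BP3-only genes. For genes with both, the respective figures were 67.7% and 67.1% in bio2 and 56.2% and 65.2% in METTL1.

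IGF2, the growth factor mRNA that gave the family its name, had the most shared sites. It carried 34 and 36 exonic clusters in the IGF2BP2 libraries and 33 and 31 in the IGF2BP3 libraries. Both proteins shared 28 sites there, 20 of them in the 3' UTR and 7 in the 5' UTR, and 2 further sites were IGF2BP2 only and 1 IGF2BP3 only. PLBD2, a phospholipase B-like gene, had 14 and 15 clusters against 15 and 15, with 11 shared sites and no one-sided site. MDM2, an E3 ubiquitin ligase, had 11 and 12 against 10 and 10, with 8 shared and 2 IGF2BP2-only sites. NFAT5, the transcription factor of the osmotic stress response, had 7 and 12 against 12 and 12, with 7 shared sites, all in its 3' UTR. ZNF121 held 7 shared sites, APOOL 6 and RPS29 5. Of the shared IGF2BP2 sites, 8 of 11 in PLBD2, 4 of 8 in MDM2 and 4 of 7 in NFAT5 were single-copy. In ZNF121 it was 2 of 7, in APOOL 4 of 6 and in RPS29 1 of 5.

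APOB, the structural protein of low-density lipoprotein, was held unevenly by the 2 proteins. It had 13 and 20 exonic clusters in the IGF2BP2 libraries and 23 and 22 in the IGF2BP3 libraries. All of its 12 exonic IGF2BP2 sites were shared, and 6 further sites, all in coding sequence, were IGF2BP3 only. The bio2 libraries had 44 and 43 clusters in its exons, IGF2BP1 43 and 50, METTL1 8 and 14, and WDR4 15 and 8.

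Further genes held IGF2BP3-only sites with few or no IGF2BP2 clusters, or beside shared sites. BMPR2, a receptor for bone morphogenetic proteins, had 0 and 2 IGF2BP2 clusters against 6 and 6 IGF2BP3 clusters, and 4 IGF2BP3-only sites. PATL1, a factor of mRNA decapping, had 0 and 0 against 4 and 5, with 4 IGF2BP3-only sites, 2 in coding sequence and 2 in the 3' UTR. Its exons had 3 and 3 clusters in the bio2 libraries and 0 in each METTL1 and WDR4 library. RICTOR, a subunit of the mTOR complex that phosphorylates AKT, had 0 and 0 against 3 and 3, all in its 3' UTR. MBNL3, a splicing regulator, had 5 and 7 against 11 and 11, with 4 shared and 5 IGF2BP3-only sites. LCOR, a nuclear receptor corepressor, had 5 and 6 against 12 and 12, with 4 shared and 3 IGF2BP3-only sites. PAICS, an enzyme of purine synthesis, had 4 and 5 against 8 and 7, and SCD, the stearoyl-CoA desaturase, 7 and 8 against 9 and 9, with 3 IGF2BP3-only sites each.

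In the genes with the most one-sided sites, IGF2BP2-only sites numbered up to 4 and IGF2BP3-only sites up to 6. Sites per gene were not compared over all genes. MYADM, a myeloid-associated membrane protein, had 7 and 6 IGF2BP2 clusters against 3 and 3, with 2 shared sites and with 4 IGF2BP2-only sites, all 4 in its 3' UTR. TMEM170A had 7 and 9 against 1 and 3, and held 3 IGF2BP2-only sites and no IGF2BP3 site. TTYH3, of the tweety family of membrane proteins, had 8 and 9 against 4 and 8, with 3 IGF2BP2-only sites. GINS1, a subunit of the replicative helicase complex, had 5 and 3 against 1 and 1, with 3 IGF2BP2-only sites of which 1 was single-copy and 1 IGF2BP3-only site. PGPEP1 had 10 and 8 against 3 and 4, with 3 shared and 2 IGF2BP2-only sites, neither of which was single-copy.

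The transcripts of the family itself were unequally held. IGF2BP1 mRNA had 7 and 7 IGF2BP2 clusters and 6 and 3 IGF2BP3 clusters, with 3 shared sites in its 3' UTR and 0 clusters in either bio2 library. IGF2BP2 mRNA had 1 and 1 exonic IGF2BP2 clusters and 3 and 3 exonic IGF2BP3 clusters, and no exonic IGF2BP2 site. An intron of the IGF2BP2 gene held 1 shared site. IGF2BP3 mRNA had no exonic cluster in the 4 libraries, nor had H19, ACTB and CD44. HMGA2, an oncofetal chromatin protein and a target of let-7, had 4 and 5 against 9 and 9, with 3 shared and 3 IGF2BP3-only sites. LIN28B, which blocks let-7 maturation, had 0 and 0 against 1 and 1.

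Gene lists drawn up by function were counted against the shares of all 3229 genes, which were 28.8% with both, 3.22% IGF2BP2 only and 16.4% IGF2BP3 only. Each list is given as a description. Of 24 genes of secreted plasma proteins, 9 held both, 0 were IGF2BP2 only and 5 were IGF2BP3 only. Those with both included APOB, SERPINA1 (alpha-1-antitrypsin) with 4 and 2 clusters against 7 and 6, and FGB (fibrinogen beta) with 2 and 2 against 3 and 3. The IGF2BP3-only genes included F5 (coagulation factor V), with 0 and 0 clusters against 2 and 3, and KNG1 (kininogen) and CFI (complement factor I), each with 0 and 0 against 1 and 1. Of 27 genes of cholesterol and lipid metabolism, 12 held both, 1 was IGF2BP2 only and 4 were IGF2BP3 only. SREBF1, the lipogenic transcription factor, was the IGF2BP2-only gene, and NPC1, ELOVL5 and MTTP were among those with IGF2BP3 only. Of 11 liver transcription factors 7 held both, among them HNF4A with 2 and 2 clusters against 2 and 3 and FOXA1 with 1 and 1 against 3 and 2, while FOXA3 was IGF2BP3 only.

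Among lists of genes that act on RNA, none of 8 SRSF and HNRNP splicing factors held both and 3 were IGF2BP3 only, namely HNRNPC, HNRNPL and TRA2B, each with 1 cluster in either IGF2BP3 library. Of 20 genes of mRNA decay and deadenylation, 8 held both and 5 were IGF2BP3 only. These included PATL1, the exosome nucleases DIS3, with 0 and 0 clusters against 2 and 2, and EXOSC10, with 0 and 0 against 1 and 1, while ZFP36L1, BTG2 and TOB2 held both. Of 9 genes of the microRNA pathway, AGO2 and TNRC6B held both, AGO1 was IGF2BP2 only, and DICER1, DROSHA and DGCR8 were IGF2BP3 only. DICER1, which cuts microRNA precursors, had 0 and 0 clusters against 2 and 2. Of 12 writers, erasers and readers of m6A and m7G, 5 held both, METTL16 was IGF2BP2 only, and YTHDF2 and WTAP were IGF2BP3 only. Of 34 genes named as translation factors, 10 held both, 2 were IGF2BP2 only and 5 were IGF2BP3 only. EEF2, the elongation factor, had 3 and 3 clusters against 4 and 5, and EIF4B and EIF4G3 were IGF2BP3 only. EIF2S3 was IGF2BP2 only in its exons, with 1 shared site in an intron. Of 17 ribosomal protein genes 7 held both, RPL28 was IGF2BP2 only and RPL13A IGF2BP3 only, and reads of this family can be split with its many pseudogenes.

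Of 21 let-7 and oncofetal targets, 12 held both and 3 were IGF2BP3 only (DICER1, E2F5 and LIN28B). PEG10 had 6 and 8 clusters against 7 and 8, and ARID3A 9 and 9 against 7 and 5 with 5 shared and 2 IGF2BP2-only sites. Of 22 genes of insulin and IGF signalling, 5 held both, AKT2 was IGF2BP2 only, RICTOR and SOS2 were IGF2BP3 only, and 10 held an IGF2BP3 site beside IGF2BP2 clusters that made no site. Of 28 chromatin remodellers and histone methylation genes, 14 held both and 6 were IGF2BP3 only, led by INO80D with 0 and 0 clusters against 3 and 3. Of 20 cell cycle genes 6 held both and 3 were IGF2BP3 only, E2F5, RBL1 and BUB1.

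Among the other lists, 9 of 14 ER chaperone and folding genes held both, with CALR and SSR3 among them, and PDIA6 and SSR4 were IGF2BP3 only. RAB GTPases had 10 of 21 with both and RAB6C as IGF2BP3 only. Respiratory chain and ATP synthase genes, assembly factors included, had 4 of 16 with both and 5 IGF2BP3 only, among them NDUFAF3, COX16 and ATP5IF1. Proteasome genes had 4 of 10 with both, led by PSMB2 with 5 and 7 clusters against 5 and 5, and PSMA4 and PSMA7 as IGF2BP3 only. Deubiquitinases had 7 of 15 with both, USP22 as IGF2BP2 only and 3 as IGF2BP3 only, led by USP34. Solute carriers had 22 of 68 with both, 2 IGF2BP2 only (SLC25A3 and SLC39A7) and 12 IGF2BP3 only, led by SLC5A3. Zinc finger genes, the largest list, had 31 of 121 with both, 4 IGF2BP2 only and 18 IGF2BP3 only. Kinesins and dyneins had 1 of 6 with both and 2 IGF2BP3 only, DYNLL1 and DYNLL2, and of 5 collagen, laminin and integrin genes (fibronectin included) FN1 held both.

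**Figure D5:**
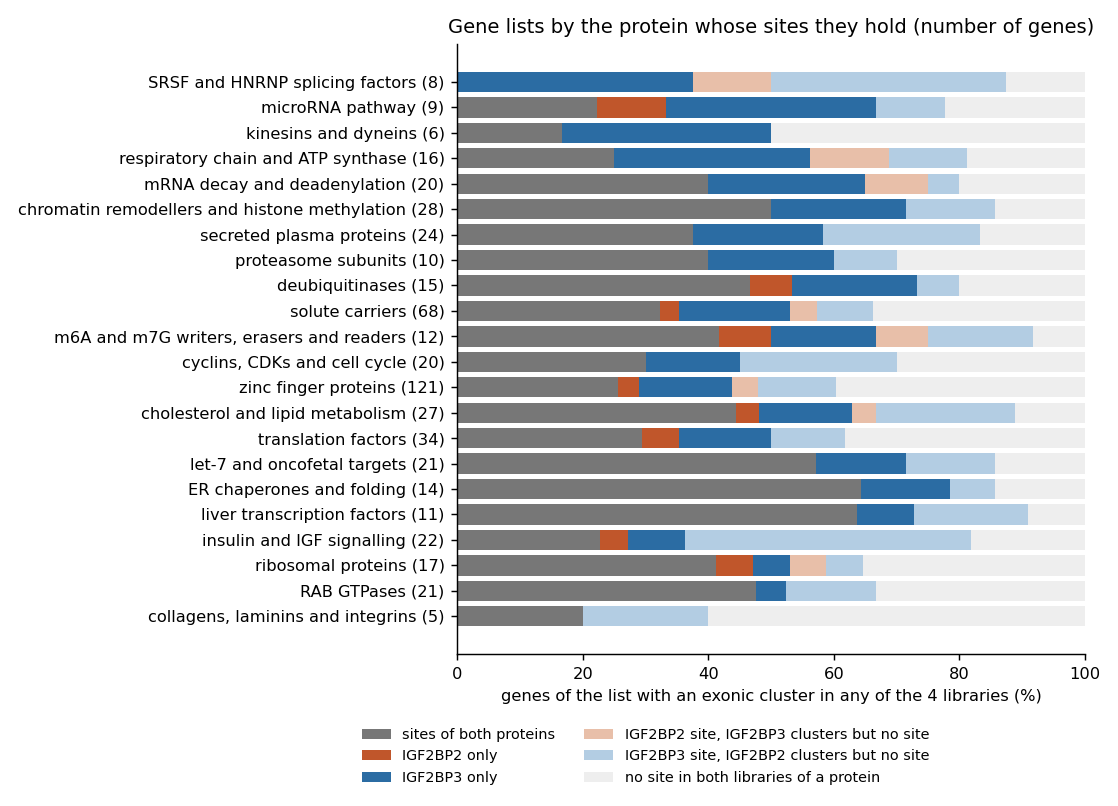
Share of the genes of each list (x axis, percent of the genes with an exonic cluster in any of the 4 libraries, whose number stands in parentheses) by the protein whose sites they hold. Grey marks both proteins, orange IGF2BP2 only and blue IGF2BP3 only; over all 3229 genes these shares are 28.8%, 3.22% and 16.4%.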

How the data were processed

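PAR-CLIP was made in HepG2 cells. Per the study's methods, the authors clipped and collapsed reads with the FASTX toolkit, mapped them with bowtie and called clusters per library with PARalyzer; the labels name hg38. The deposited unit is another kind than a count: intervals without score, read number or depth. Starts were read as counted from 1.

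Clusters were placed on GENCODE release 44 by their midpoint, coding annotation outranking UTRs, UTRs other exons, and exons introns. A site took the class of its widest cluster. Two-sided exact permutation tests over libraries were run in Python 3.11.15 (pysam 0.24.0). Intervals were at 95%. The code was tested on simulated data. Named genes were the 8 with the most shared, IGF2BP2-only or IGF2BP3-only exonic sites, up to 3 per class in 23 gene lists, and known targets, some of which are not reported here. The members and lists were chosen with earlier results of these data known. Alternatives changed the overlap, window, annotation, copy number, cluster set or libraries.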

Additional observations from a re-analysis of the deposited data

How the results depend on the processing

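Of 125 values of 12 results under other settings, 80 kept their direction (tested differences), their value within the error (other shares) or their count within 1.5 times. These 80 include the 4 tested differences under a replicate block, which that block could not change. Words were judged by the total number that did not overlap, whatever their direction. Depth per cluster is unknown, and 2 libraries a side limit every test. Replicate numbers were not taken as pairs, since the differences between replicates of the proteins correlated at -0.016 over 13175 sites. A replicate block changes only the p of the exact permutation test, which then cannot go below 0.5. The 4 tested differences are the same by construction, at -0.36 (3' UTR), -5.48 (coding sequence), 0.84 (intron) and -22.3 points (CAUH). The coding sequence and CAUH differences kept their sign under all settings run, but not their size: they were -3.40 and -17.8 points with single-copy clusters, -2.97 and -21.9 with the widest clusters, and -2.80 and -6.13 with clusters free of inner G, where the words went from 170 higher and 79 lower to 55 and 116.

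The shared part of the IGF2BP2 and IGF2BP3 sites was 76.2% and 59.1% against any cluster of the other side, 68.6% and 32.0% with single-copy clusters, and 76.9% and 24.8% with clusters free of inner G. For IGF2BP3 it was 38.0% on chromosomes 1 to 22, X and Y, and 42.4% with the widest clusters. Leaving out 1 library gave 35.8% to 70.8% for IGF2BP2 and 33.5% to 54.2% for IGF2BP3. The 3' UTR difference turned to 0.86 points on chromosomes 1 to 22, X and Y, 4.73 with single-copy clusters, 2.10 with the widest clusters, 6.82 with clusters free of inner G, and ran from -2.11 to 1.40 with 1 library left out. The intron difference turned to -3.70 (single-copy), -2.60 (widest), -0.73 (1 transcript per gene) and -3.38 (free of inner G), and ran from -1.03 to 2.70.

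The number of IGF2BP2-only genes was 65 with single-copy clusters, 24 with clusters free of inner G and 205 whatever single libraries of the other side held, and 145 to 502 with 1 library left out. IGF2BP3-only genes numbered 311 with the widest clusters, 1002 whatever single libraries held, and 636 to 851 with 1 library left out. Genes with both numbered 515 with clusters free of inner G. The 3' UTR difference between one-sided sites, -0.01 points, was 9.35 with single-copy and 4.46 with the widest clusters, and -6.18 to 4.77 with 1 library left out. The CAUH difference between one-sided sites, -46.9 points, was -42.3 with single-copy clusters, -40.8 for sites without a site of the other protein, -16.7 free of inner G and -55.0 in the fixed window, and -46.8 to -41.5 with 1 library left out. Clusters free of inner G and the fixed window were chosen after seeing the data, and the causes of these shifts were not tested.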

Other observations

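The mitochondrial chromosome held 190 and 198 IGF2BP2 clusters and 149 and 160 IGF2BP3 clusters. Nearly all IGF2BP3 sites there were also IGF2BP2 sites, 111 of 117 (94.9%), while 108 of 146 IGF2BP2 sites (74.0%) were shared. Each of the 13 mitochondrial protein-coding genes had a cluster in all 4 libraries, with MT-CYB at 7 and 10 against 9 and 9 and MT-CO1 at 9 and 11 against 8 and 5. The mitochondrial rRNA gene MT-RNR2 had 10 and 10 against 12 and 11. Clusters on the mitochondrial strand with no annotated gene numbered 94 and 102 against 59 and 72.

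Exons of long noncoding RNAs held 48 of the 1956 shared IGF2BP2 sites, 16 of the 754 IGF2BP2-only sites and 62 of the 1991 IGF2BP3-only sites. LINC01278 and DIP2C-AS1 held 4 IGF2BP3-only sites each and no IGF2BP2 site. OIP5-AS1, a cytoplasmic noncoding RNA, held 2 shared sites, 1 IGF2BP2-only site and 1 IGF2BP3-only site. SNHG14 held 2 shared and 2 IGF2BP3-only sites. These genes were chosen after their values were seen. Exons of processed pseudogenes held 19 of the 1956 shared IGF2BP2 sites, 2 of the 754 IGF2BP2-only sites and 35 of the 1991 IGF2BP3-only sites. In the same order, exons of unprocessed pseudogenes held 22, 1 and 4 sites and those of microRNAs 0, 4 and 0.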
